A study of Homo sapiens with 18 samples.

Results

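The expression of 7 genes that went up with estradiol (E2) was followed in PEO1 cells: the transporters SLC22A3 and SLC22A5, the enzymes ST6GALNAC2 and LOXL4, the RING finger proteins LONRF2 and RNF223, and the Ras activator RASGRP1. They were picked by symbol for large rises with E2 in one or both siRNA arms, so the rises themselves are the basis of the choice and are described here with no test. Each of the 7 genes had 1 row among the 57736 rows of the deposited table, and all 7 were among the 15318 genes that passed the low-count filter. PEO1 is a human ovarian cancer line, and the series title speaks of mutant p53. Before treatment the cells received siControl, the control siRNA, or sip53, which targets p53. They were kept for 48 h in phenol red-free medium with charcoal-stripped serum, and were then left untreated (0 h) or given 10 nM E2 for 2 or 8 h. The 6 groups, siControl and sip53 at 0, 2 and 8 h, held 3 samples each, and 1 cell line and 1 siRNA label against p53 were used throughout. The labels do not say whether the 3 samples of a group were separate cultures, so the spread between them may be technical.

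E2 acts by binding the estrogen receptor, a ligand-activated transcription factor that binds DNA at estrogen response elements or is brought to promoters by other factors. Genes it induces can peak early and decline, or keep accumulating for as long as the hormone is present. The 7 genes belong to no single pathway: 2 move organic cations and carnitine across the plasma membrane, 1 adds sialic acid to O-linked glycans, 1 cross-links collagen outside the cell, 2 carry the RING domain of ubiquitin ligases, and 1 loads Ras with GTP.

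Sequencing depth, as total counts, ranged from 7542457 to 10132570 over the 9 libraries of siControl and from 9225939 to 11307199 over the 9 of sip53. The label of an ovarian cancer cell was checked on 13 ovarian carcinoma and epithelial markers, of which 12 passed the filter. PAX8 stood at 96.1 to 149 CPM (counts scaled to the library total, adjusted for library composition). EPCAM stood at 435 to 658 CPM, while FOLR1 was at or near 0 (at most 0.19 CPM). Summed over the 13 markers, the level was 5730 to 6360 CPM in siControl and 7110 to 8430 in sip53, with no overlap between the arms. The sum is led by KRT7 (1210 to 2070 CPM), KRT18 (1170 to 2100) and KRT19 (1100 to 2180), so it says little about the other markers. In bulk RNA, more cells of a type and more RNA per cell cannot be told apart. The fibroblast genes COL1A2, COL3A1, DCN and LUM and the leukocyte genes PTPRC and CD3E had 0 counts in all 18 samples, and the endothelial markers summed to at most 1.07 CPM. The other fibroblast markers were led by THY1 at 81.2 to 143 CPM, with FAP at 7.2 to 17.1 and COL1A1 at 4.64 to 13.3 (3 of 8 passed the filter, sum 100 to 159 CPM). Of the 6 leukocyte markers 2 passed, CD14 at 4.01 to 9.12 CPM and CD68 at 5.01 to 11.5 (sum 9.21 to 19.9 CPM). In the siControl group at 2 h, replicate 1 was the lowest of the 3 samples for 6 of the 7 genes and replicate 3 the highest for 5. Over all tested genes replicate 1 was the lowest for 38% and replicate 3 the highest for 33.1%. In sip53 at 8 h, replicate 1 was the lowest for 5 of the 7 and replicate 3 the highest for 4, against 32.4% and 34.6% of all genes. In each of the other groups no replicate was the lowest or the highest for more than 4. Library siControl 0 h replicate 2 had the lowest total of all and stood apart on a principal component, at -41.7 on the second axis.

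To show the sequence at which transcription of these genes begins, RefSeq promoter windows on GRCh38.p14 were read, each running from 250 bases before to 50 bases after the start; 5 of the 7 genes had an entry, and SLC22A3 and ST6GALNAC2 are named only. The motifs searched, on both strands, were the estrogen response element (the half-site GGTCA and its inverted copy with 3 bases between), the half-site alone, the AP-1 element TGANTCA, the GC box GGGCGG and the TATA box TATAAA. The full estrogen response element was in none of the 5 windows, and in 0.057% of the 35116 windows of all genes. The half-site was in 1 of the 5, RNF223, against 37.4% of all windows, and the AP-1 element in none, against 7.71%. The half-site lies inside the full element, so every full match is also a half-site match. The windows shown are those of RNF223, whose level was highest at 2 h, and of SLC22A5 and LOXL4, which differed most between the siRNA arms at 8 h. Capitals mark motif matches on either strand.
RNF223 (chr1:1074257-1074556, minus strand): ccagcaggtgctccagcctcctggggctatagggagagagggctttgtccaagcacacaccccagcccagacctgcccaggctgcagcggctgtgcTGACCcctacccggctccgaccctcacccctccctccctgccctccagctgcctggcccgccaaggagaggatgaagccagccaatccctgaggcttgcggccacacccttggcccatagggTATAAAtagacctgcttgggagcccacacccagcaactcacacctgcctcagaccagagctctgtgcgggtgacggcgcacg
SLC22A5 (chr5:132369460-132369759, plus strand): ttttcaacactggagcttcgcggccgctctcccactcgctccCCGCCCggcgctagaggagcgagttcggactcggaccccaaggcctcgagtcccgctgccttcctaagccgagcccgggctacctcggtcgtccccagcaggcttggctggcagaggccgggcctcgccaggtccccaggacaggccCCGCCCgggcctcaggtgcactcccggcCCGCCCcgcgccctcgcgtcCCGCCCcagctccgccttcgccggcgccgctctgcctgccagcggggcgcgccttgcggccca
LOXL4 (chr10:98268145-98268444, minus strand): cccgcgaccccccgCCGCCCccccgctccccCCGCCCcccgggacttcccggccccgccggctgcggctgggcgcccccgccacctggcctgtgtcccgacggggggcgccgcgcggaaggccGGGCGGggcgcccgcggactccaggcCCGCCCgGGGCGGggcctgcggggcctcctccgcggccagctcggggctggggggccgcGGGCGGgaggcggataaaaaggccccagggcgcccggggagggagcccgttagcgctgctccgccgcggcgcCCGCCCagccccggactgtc
In RNF223 the capitals are 1 half-site, 154 bases before the start, and 1 TATA box, 32 bases before it; a TATA box was in 11.5% of all windows. In SLC22A5 they are 4 GC boxes and in LOXL4 7, a motif found in 45% of all windows. LONRF2 held 1 GC box and RASGRP1 no match. The GC content was 65.7% in RNF223, 75.3% in SLC22A5 and 85.3% in LOXL4, against a median of 58.7% over all windows. A match is only a run of letters, and the lack of one says nothing about distant sites.

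Levels are given as CPM scaled by TMM, a normalisation for library composition, in replicate order 1, 2, 3. Libraries were made from transcript 3′ ends, and no level is compared between genes. The 2 h and 8 h differences of an arm share its 0 h samples. Differences are log2 fold changes from edgeR's quasi-likelihood fit with their standard error (SE).

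SLC22A3 encodes an organic cation transporter that carries monoamines and cationic drugs (ENSG00000146477, chromosome 6, 160348268 to 160452581 on GRCh38, plus strand). siControl samples stood at 21.5, 33.6 and 35.4 CPM at 0 h, 40.6, 68 and 77.5 at 2 h, and 90.3, 96.5 and 87.2 at 8 h. sip53 samples stood at 38.1, 39.7 and 35.1 CPM at 0 h, 77.5, 63.5 and 76 at 2 h, and 115, 124 and 148 at 8 h. Each time lay above the one before in both arms with no overlap of samples, and the 8 h sip53 samples were above all others. The log2 rise was 1.05 ± 0.19 at 2 h and 1.60 ± 0.19 at 8 h in siControl, and 0.94 ± 0.18 and 1.78 ± 0.18 in sip53. On the CPM scale, 52.1% of the 8 h rise in siControl and 38% of that in sip53 was present at 2 h.

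SLC22A5, of the same family, is the sodium-dependent transporter that brings carnitine into cells for fatty acid oxidation (ENSG00000197375, chromosome 5, 132369752 to 132395614, plus strand). The siControl levels were 10.2, 5.52 and 8.92 CPM at 0 h, 24.5, 25.4 and 24.9 at 2 h, and 19.9, 21.8 and 22.5 at 8 h. The sip53 levels were 12.7, 9.95 and 13.6 CPM at 0 h, 35.5, 32.5 and 35.9 at 2 h, and 36.5, 39.5 and 47.4 at 8 h. The samples of the arms moved in different directions after 2 h: the 3 siControl samples at 8 h were below all those at 2 h, and the 3 sip53 samples at 8 h were above all those at 2 h. The log2 rise over 0 h was 1.59 ± 0.18 at 2 h and 1.37 ± 0.18 at 8 h in siControl, and 1.52 ± 0.17 and 1.77 ± 0.17 in sip53. From 2 h to 8 h the log2 difference was -0.22 ± 0.16 in siControl and 0.25 ± 0.15 in sip53.

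ST6GALNAC2 encodes a Golgi sialyltransferase that adds sialic acid to the N-acetylgalactosamine of O-linked glycans (ENSG00000070731, chromosome 17, 76565379 to 76586956, minus strand). It had the fewest counts of the 7 genes, 1448 over the 18 samples. Levels in siControl were 3.2, 4.49 and 3.91 CPM at 0 h, 3.29, 5.38 and 7.41 at 2 h, and 11.5, 10.9 and 11.5 at 8 h. Levels in sip53 were 4.29, 6.64 and 3.94 CPM at 0 h, 8.36, 8.11 and 7.94 at 2 h, and 13, 15.3 and 18.2 at 8 h. The rise came late: at 2 h the siControl samples overlapped those at 0 h, and in both arms all 8 h samples lay above all 2 h samples. The log2 rise was 0.48 ± 0.27 at 2 h and 1.55 ± 0.26 at 8 h in siControl, and 0.72 ± 0.25 and 1.65 ± 0.25 in sip53. Only 20.1% of the 8 h rise on the CPM scale in siControl and 30.1% in sip53 was present at 2 h, the smallest share among the 7 genes in each arm. The annotated gene AC015802.6 covers the 3′ end of ST6GALNAC2 on the same strand and has no row of its own in the named table, so reads from the 2 genes cannot be told apart.

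LOXL4 encodes a secreted copper amine oxidase of the lysyl oxidase family, which cross-links collagen and elastin (ENSG00000138131, chromosome 10, 98247690 to 98268250, minus strand). Samples of siControl had 18.7, 26.3 and 17.3 CPM at 0 h, 27.9, 29.5 and 41.4 at 2 h, and 44.4, 36.5 and 54.3 at 8 h. Samples of sip53 had 23.5, 20.7 and 23.5 CPM at 0 h, 47.5, 44.2 and 46.6 at 2 h, and 88.8, 75.5 and 92.1 at 8 h. The arms overlapped at 0 h, the sip53 samples at 2 h lay within the range of the siControl samples at 8 h, and the sip53 samples at 8 h were above all others. The log2 rise was 0.67 ± 0.17 at 2 h and 1.12 ± 0.17 at 8 h in siControl, and 1.03 ± 0.17 and 1.92 ± 0.17 in sip53.

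LONRF2 encodes a RING finger ubiquitin ligase with a LON-type substrate-binding domain (ENSG00000170500, chromosome 2, 100273291 to 100322733, minus strand). The 3 siControl samples per time had 8.81, 9.75 and 7.57 CPM at 0 h, 20.7, 21.2 and 28.2 at 2 h, and 27.4, 28.4 and 26.5 at 8 h. The 3 sip53 samples per time had 6.49, 6.32 and 4.98 CPM at 0 h, 20.5, 22.3 and 18.6 at 2 h, and 18.7, 27.8 and 25.3 at 8 h. Most of the rise was present early, with 78.2% of the 8 h rise on the CPM scale reached by 2 h in siControl and 81% in sip53, and the 2 h and 8 h samples overlapped in each arm. The log2 rise was 1.42 ± 0.18 at 2 h and 1.65 ± 0.18 at 8 h in siControl, and 1.79 ± 0.18 and 2.01 ± 0.18 in sip53.

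RNF223 encodes a small, little-described RING finger protein (ENSG00000237330, chromosome 1, 1070966 to 1074307, minus strand). siControl gave 9.91, 8.73 and 9.53 CPM at 0 h, 25.6, 20.9 and 25.9 at 2 h, and 20.3, 19.8 and 14 at 8 h. sip53 gave 7.59, 4.17 and 6.32 CPM at 0 h, 19.7, 20.3 and 19 at 2 h, and 16.6, 15.2 and 16.1 at 8 h. Its highest values came at 2 h in both arms, and in both arms all 8 h samples were below all 2 h samples and above all 0 h samples. The log2 rise was 1.36 ± 0.18 at 2 h and 0.94 ± 0.19 at 8 h in siControl, and 1.70 ± 0.19 and 1.40 ± 0.19 in sip53. From 2 h to 8 h the log2 difference was -0.42 ± 0.18 in siControl and -0.30 ± 0.17 in sip53, so the word sustained fits this gene least.

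RASGRP1 encodes a guanine nucleotide exchange factor that activates Ras downstream of diacylglycerol and calcium and is best known from lymphocytes (ENSG00000172575, chromosome 15, 38488103 to 38565575, minus strand). For siControl the values were 14.1, 14.1 and 17.3 CPM at 0 h, 35.8, 37.9 and 37.4 at 2 h, and 52.7, 54.5 and 42.3 at 8 h. For sip53 the values were 20.4, 16.9 and 17.6 CPM at 0 h, 46.5, 49.3 and 42.3 at 2 h, and 58, 70.2 and 61.8 at 8 h. Each time lay above the one before in both arms with no overlap, and the time courses of the arms ran nearly in parallel on the log2 scale. The log2 rise was 1.29 ± 0.14 at 2 h and 1.71 ± 0.13 at 8 h in siControl, and 1.33 ± 0.13 and 1.79 ± 0.13 in sip53.

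**Figure D1:**
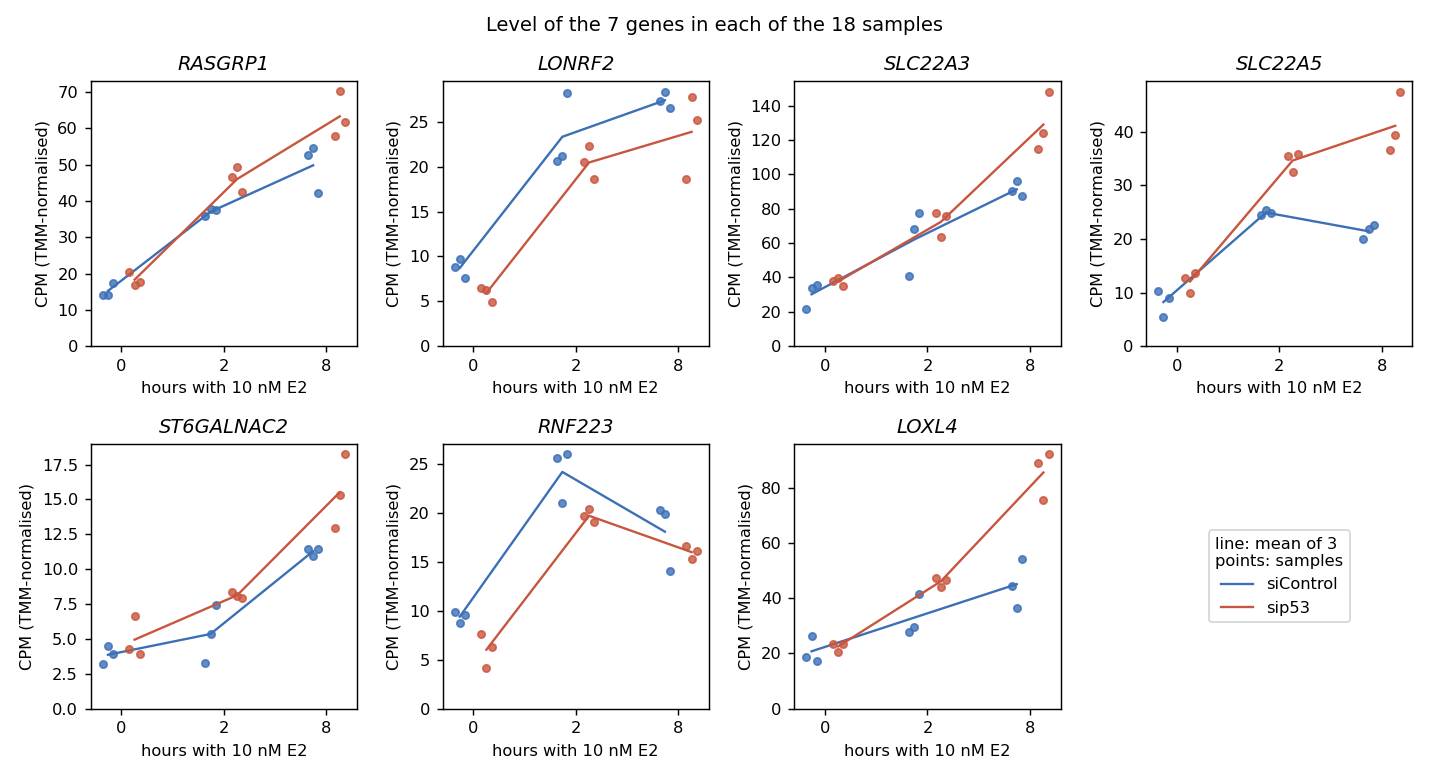
CPM (TMM-normalised, linear axis from 0) of each gene against hours with 10 nM E2, with points for samples and lines through the means of 3, blue for siControl and red for sip53; the 3 times are evenly spaced on the axis. RNF223 is highest at 2 h in both arms, SLC22A5 is lower at 8 h than at 2 h in siControl and higher in sip53, and LOXL4 in sip53 reaches 75.5 to 92.1 CPM at 8 h.

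All 7 genes were still above their 0 h samples at 8 h, but their courses differed. RASGRP1 and SLC22A3 were higher at each step in both arms, as was LOXL4 in sip53 and, by its means, in siControl, where the 2 h and 8 h samples overlapped. ST6GALNAC2 went up mainly between 2 h and 8 h. LONRF2 was close to its 8 h level by 2 h, while RNF223, and SLC22A5 in siControl, were lower at 8 h than at 2 h. In the 8 h minus 2 h difference, 3 of the 7 genes had all 8 h samples above and 2 all below those at 2 h in siControl, against 9.55% and 8.71% of all genes. In sip53 it was 5 above and 1 below, against 9.89% and 10.5%. The genes were picked on their E2 response, so these counts are a description and the shares are given for scale only. The highest of the 6 group means was sip53 at 8 h for 5 of the 7 genes, siControl at 8 h for LONRF2 and siControl at 2 h for RNF223. For LONRF2 neighbours in order overlapped among the 4 groups with E2, and the lowest of these, sip53 at 2 h, did not overlap siControl at 0 h. For SLC22A5 the 4 groups with E2 did not overlap, and stood in the order sip53 at 8 h, sip53 at 2 h, siControl at 2 h and siControl at 8 h. The 0 h groups of the arms overlapped for RASGRP1, SLC22A3, SLC22A5, ST6GALNAC2 and LOXL4. Neighbours also overlapped between siControl at 8 h and sip53 at 2 h for RASGRP1, between the 2 h groups for SLC22A3, between sip53 at 2 h and siControl at 8 h and between siControl at 8 h and siControl at 2 h for LOXL4, between siControl at 2 h and sip53 at 0 h for ST6GALNAC2, and among sip53 at 2 h, siControl at 8 h and sip53 at 8 h for RNF223. The lowest mean was siControl at 0 h for the same 5 genes and sip53 at 0 h for LONRF2 and RNF223.

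For scale, the median log2 rise of the 7 genes was 1.29 at 2 h and 1.55 at 8 h in siControl, and 1.33 and 1.78 in sip53, while the median of all 15318 genes was -0.01 at 2 h in both arms and at 8 h in sip53, and 0 to 2 decimals at 8 h in siControl. Without siControl 0 h replicate 2, the library that stood apart, the siControl median at 8 h was 1.67, and without siControl 0 h replicate 1 it was 1.42. The E2 samples lay above all 0 h samples in 6 of the 7 genes at 2 h and 7 of 7 at 8 h in siControl, against 7.46% and 10.5% of all genes, and in 7 of 7 at both times in sip53, against 8.04% and 10.3%. Because the genes were picked on these contrasts, the counts describe the choice only.

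**Figure D2:**
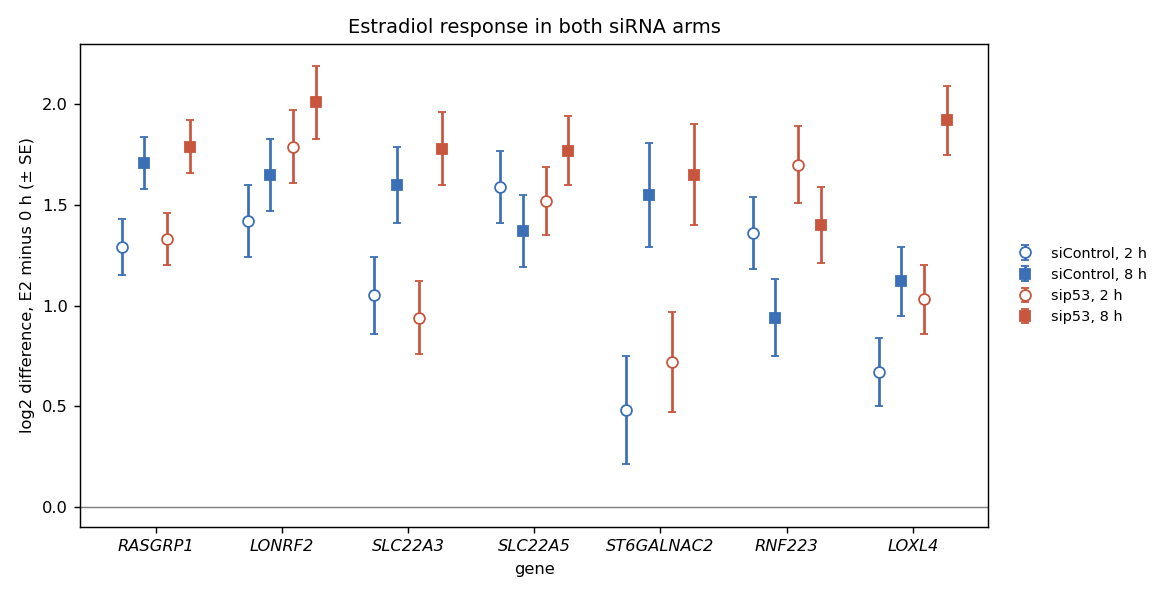
Log2 difference between E2 and 0 h (± SE) for each gene, open circles for 2 h and filled squares for 8 h, blue for siControl and red for sip53. All 28 values are above 0, from 0.48 (ST6GALNAC2, siControl, 2 h) to 2.01 (LONRF2, sip53, 8 h).

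The knockdown asks whether p53 in these cells restrains estrogen receptor activity, as the series title puts it, and comparing the arms at each time was not what the genes were picked on. The same libraries enter both kinds of contrast, so these tests are not independent of the choice. A high level with E2, or a low level at 0 h, in 1 arm could help a gene to be picked. That same level is 1 side of the comparison between the arms. The shares of all genes beside the counts of the 7 are therefore given for scale only. At 8 h of E2, SLC22A5 and LOXL4 were higher in sip53 than in siControl, by 1.92-fold and 1.89-fold. SLC22A5 rose from 21.4 ± 1.34 CPM in siControl to 41.1 ± 5.62 in sip53 (mean ± SD, n = 3 each; log2 0.94 ± 0.16, edgeR adjusted p = 0.000985). LOXL4 rose from 45.1 ± 8.89 to 85.5 ± 8.80 CPM (log2 0.92 ± 0.16, edgeR adjusted p = 0.00114). Calls are by edgeR's quasi-likelihood test at a Benjamini-Hochberg adjusted p under 0.05 over all genes. Both calls held in the 6 fits that left out 1 library and in the 6 with another scaling, filter, sample set, block or tool. Thus 2 of the 7 genes were called higher and 0 lower at 8 h, where 2.81% of all genes were called higher and 6.14% lower. An unadjusted p under 0.05 was found for 4 of the 7, against 3747 of all 15318 genes. DESeq2 called 4 of the 7, against 1859 of all genes. In 5 of the 7 genes all sip53 samples at 8 h lay above all siControl samples, which held for 14.6% of all genes.

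The other 3 of those 5 genes did not pass the adjusted threshold at 8 h. SLC22A3 stood at log2 0.50 ± 0.17 (edgeR adjusted p = 0.0748, and 0.0421 with DESeq2), RASGRP1 at 0.35 ± 0.12 (edgeR adjusted p = 0.078, and 0.0498 with DESeq2) and ST6GALNAC2 at 0.46 ± 0.24 (edgeR adjusted p = 0.238). LONRF2 and RNF223 were on the other side of 0, at -0.20 ± 0.16 and -0.17 ± 0.18, and their samples overlapped between the arms. ESR1, the estrogen receptor itself, was higher in sip53 at 8 h (84.3 against 62.3 CPM, log2 0.44 ± 0.12, edgeR adjusted p = 0.0237); it was also higher at 0 h (0.51 ± 0.12, edgeR adjusted p = 0.0114) and 2 h (0.37 ± 0.12, edgeR adjusted p = 0.0401). The summed carcinoma and epithelial markers, which include ESR1 and are led by keratins, moved the same way. The part of ESR1 or of the markers in the differences of the 7 genes was not tested.

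At 2 h none of the 7 genes was called by edgeR in either direction, while 4.42% of all genes were called higher and 7.79% lower. An unadjusted p under 0.05 was found for 4 of the 7, against 4101 of all 15318 genes. DESeq2 called 2 of the 7, against 2307 of all genes. SLC22A5 (log2 0.47 ± 0.16, edgeR adjusted p = 0.052) and LOXL4 (0.48 ± 0.16, edgeR adjusted p = 0.0546) were just outside the threshold, and DESeq2 placed them inside it (adjusted p = 0.0211 and 0.0304). In 4 of the 7 genes all sip53 samples at 2 h lay above all siControl samples, against 15.1% of all genes. RNF223 had all 3 sip53 samples below all siControl samples, against 18.1%. Without siControl 2 h replicate 3, LOXL4 (log2 0.69, edgeR adjusted p = 0.0175) and ST6GALNAC2 (0.92, edgeR adjusted p = 0.0448) were called, and without siControl 2 h replicate 1 the difference of SLC22A3 went from 0.22 to -0.01.

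Before E2, RNF223 was the 1 gene of the 7 that was called, and it was lower in sip53. It fell from 9.39 ± 0.606 to 6.03 ± 1.73 CPM (mean ± SD, n = 3 each; log2 -0.64 ± 0.20, edgeR adjusted p = 0.0468). This call was lost without any 1 of siControl 0 h replicates 1, 2 and 3 (edgeR adjusted p = 0.0828, 0.0746 and 0.106) or sip53 0 h replicates 2 and 3 (edgeR adjusted p = 0.212 and 0.126), with no low-count filter (edgeR adjusted p = 0.0595) and in a fit of these 2 groups alone (edgeR adjusted p = 0.197). LONRF2 had the same direction and no overlap of samples (log2 -0.55 ± 0.19, edgeR adjusted p = 0.0726). All sip53 samples lay below all siControl samples in these 2 of the 7 genes, against 11.9% of all genes. SLC22A5 stood at 0.54 ± 0.18 (edgeR adjusted p = 0.063), with overlapping samples, and was called without siControl 0 h replicate 1 (log2 0.74, edgeR adjusted p = 0.0166). At 0 h, 0 of the 7 were called higher and 1 lower by edgeR, against 3.98% and 5.14% of all genes. An unadjusted p under 0.05 was found for 3 of the 7, against 3886 of all 15318 genes. DESeq2 called 2 of the 7, against 1838 of all genes.

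**Figure D3:**
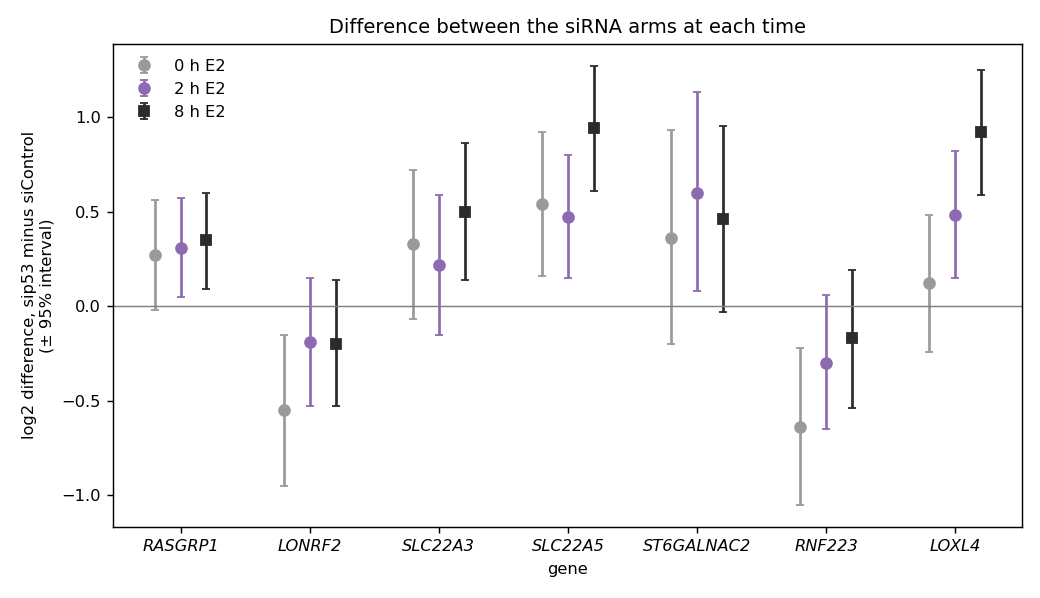
Log2 difference between sip53 and siControl (with its 95% interval, not adjusted for multiple testing) for each gene at 0, 2 and 8 h of E2. SLC22A5 and LOXL4 at 8 h lie farthest above 0, at 0.94 and 0.92, and RNF223 and LONRF2 lie below 0 at all 3 times.

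With all libraries kept, the E2 response at 8 h was larger in sip53 for the 7 genes by a median of 0.35 on the log2 scale and over a range of 0.08 to 0.80, against a median of -0.02 for all genes; without sip53 8 h replicate 2 the median was 0.23. LOXL4 had the widest gap (0.80 ± 0.24), followed by RNF223 (0.46 ± 0.27), SLC22A5 (0.40 ± 0.24) and LONRF2 (0.35 ± 0.25), and RASGRP1 the narrowest (0.08 ± 0.19). Single libraries moved these gaps and their order. The gap of RASGRP1 was -0.02 without siControl 0 h replicate 3 or siControl 8 h replicate 3, and that of ST6GALNAC2 (0.10 ± 0.36) ranged from -0.06 without sip53 0 h replicate 3 to 0.36 without sip53 0 h replicate 2. SLC22A3 (0.17 ± 0.26) went to 0.05 without siControl 0 h replicate 3, SLC22A5 to 0.19 without siControl 0 h replicate 1, RNF223 to 0.26 without sip53 0 h replicate 2, and LONRF2 to 0.23 without sip53 8 h replicate 2. LOXL4 ranged from 0.58 to 0.97. In RNF223 and LONRF2 the gap came with a lower 0 h level in sip53, and in LOXL4 with a higher 8 h level. At 2 h the gap was positive in 5 of the 7 genes, with a median of 0.24, which was 0.01 without siControl 2 h replicate 1. These gaps are made of the contrasts the genes were picked on and were not tested. Across all 15318 genes edgeR called 0 for this difference at either time (451 at 2 h and 583 at 8 h at an unadjusted p under 0.05), and DESeq2 called 1 and 2.

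Relatives of the 7 genes were taken from 6 lists with 101 genes, the 7 left out: other Ras proteins and regulators, other SLC22 transporters with SLC29A4, SLC47A1 and SLC47A2, genes of carnitine use, other sialyltransferases and sialic acid supply, other lysyl oxidases and collagen-modifying enzymes, and LONRF and RING relatives. Of these, 68 passed the filter. At 2 h edgeR called 0 of the 68 with E2 in either arm, while 0.228% and 0.268% of all genes were called higher. An unadjusted p under 0.05 was found for 8 in siControl and 2 in sip53, against 1748 and 1139 of all 15318 genes. DESeq2 called 0 of the 68 in either arm, against 118 and 93 of all genes. At 8 h edgeR called 1 higher and 0 lower in siControl and 0 higher and 1 lower in sip53. Of all genes, 1.78% and 1.55% were called higher and 0.823% and 1.18% lower. At an unadjusted p under 0.05 there were 14 and 12 of the 68, against 2583 and 2184 of all genes. DESeq2 called 5 and 1 of the 68, against 670 and 622 of all genes.

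The relative that rose was LONRF1, a paralog of LONRF2, from 30.9 ± 3.43 to 58.4 ± 5.57 CPM in siControl at 8 h (mean ± SD, n = 3 each; log2 0.92 ± 0.14, edgeR adjusted p = 0.000607), a call kept in all 6 fits that left out 1 library. In sip53 it was not called, at 39.2 ± 6.19 CPM at 0 h and 48.5 ± 5.70 at 8 h (log2 0.31 ± 0.14, edgeR adjusted p = 0.315), and the difference between the arms was -0.61 ± 0.20 (edgeR adjusted p = 0.999). LONRF3 did not pass the filter. The one that fell was ST6GALNAC3, a sialyltransferase of the same family as ST6GALNAC2, in sip53 at 8 h, from 3.28 ± 0.485 to 1.12 ± 0.312 CPM (log2 -1.54 ± 0.39, edgeR adjusted p = 0.0293). That call was lost in each of the 6 fits that left out 1 library (edgeR adjusted p = 0.0524 to 0.168). The other measured family members ST6GALNAC4, ST6GALNAC5 and ST6GALNAC6 were not called with E2 in either arm.

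Of the 22 other organic ion transporters 9 passed the filter, and edgeR called 0 with E2 at 8 h in either arm. An unadjusted p under 0.05 was found for 2 in siControl and 3 in sip53, and DESeq2 called 1 and 0. Over all 15318 genes, 2583 and 2184 had such an unadjusted p, and DESeq2 called 670 and 622. The following relatives were chosen after their values had been seen. SLC22A23, an orphan member of the family, came nearest in siControl (log2 0.89 ± 0.25, edgeR adjusted p = 0.0601). SLC22A14 went the other way, also uncalled by edgeR. It stood at 8.84 ± 3.66 CPM at 0 h and 3.86 ± 0.387 at 8 h in siControl, and at 7.06 ± 4.39 and 3.18 ± 0.673 in sip53 (mean ± SD, n = 3 each). SLC22A4, which lies in the same carnitine transporter branch as SLC22A5, stood at 0.64 ± 0.59 in siControl and 1.70 ± 0.63 in sip53, at levels of at most 1.8 CPM on average (edgeR adjusted p = 0.639 and 0.185). The lysyl oxidases LOX, LOXL1, LOXL2 and LOXL3 ranged from -0.40 to 0.37 in siControl and from -0.11 to 0.40 in sip53, all uncalled. RNF222, a RING gene with 228 counts over the 18 samples, stood at 1.55 ± 0.90 and 1.53 ± 0.87 (edgeR adjusted p = 0.401 and 0.447). The Ras exchange factor RASGRP3 stood at -0.14 ± 0.63 and -0.11 ± 0.62.

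**Figure D4:**
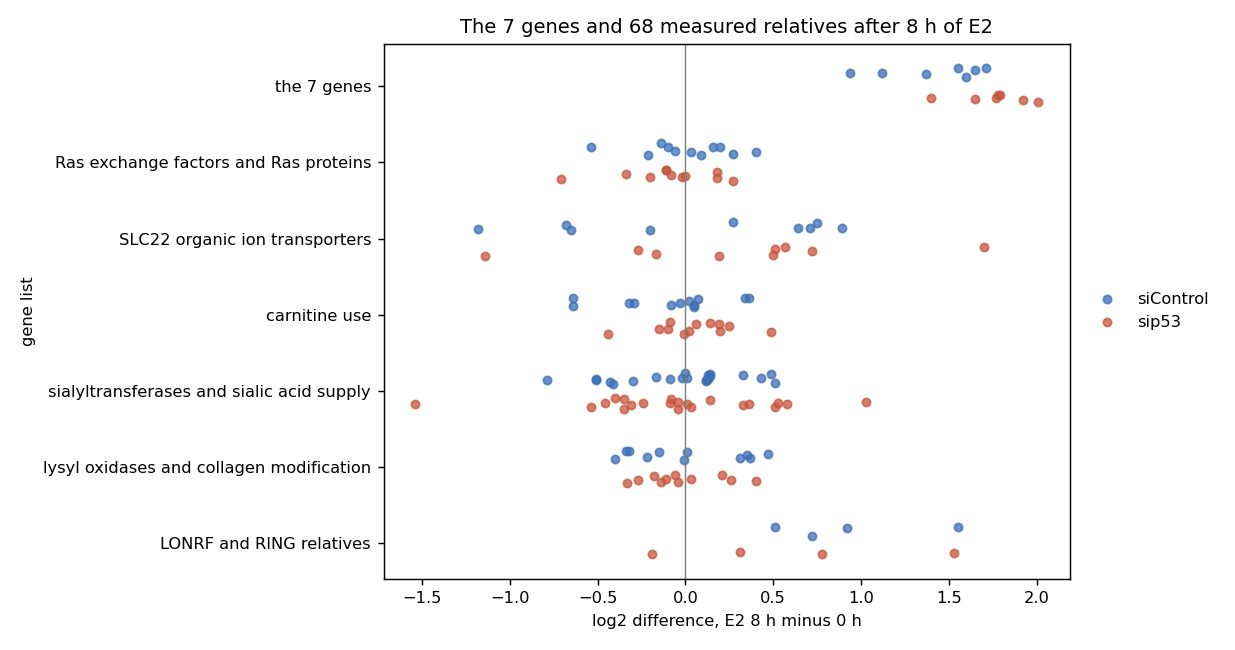
Log2 difference between 8 h of E2 and 0 h for the 7 genes (top row) and their 68 measured relatives by list, 1 point a gene, blue for siControl and red for sip53. The 7 genes, picked on this measure, lie between 0.94 and 2.01, and the relatives between -1.54 (ST6GALNAC3, sip53) and 1.70 (SLC22A4, sip53), with LONRF1 (0.92, siControl) the one called higher.

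Between the arms at 8 h, 2 of the 68 relatives were higher and 3 lower in sip53, where 2.81% and 6.14% of all genes were. Neither count stands out from those shares. The 2 higher ones are from the list of carnitine use. CPT1A, which attaches carnitine to long-chain fatty acids at the mitochondrial outer membrane, rose from 99.3 ± 2.84 to 140 ± 5.79 CPM (log2 0.49 ± 0.09, edgeR adjusted p = 0.00191). HADHB, a subunit of the mitochondrial trifunctional protein of fatty acid oxidation, rose from 33.6 ± 1.88 to 53.3 ± 6.41 CPM (log2 0.67 ± 0.13, edgeR adjusted p = 0.00295). Both calls held in all 6 fits that left out 1 library. The 2 genes leaned the same way before E2, uncalled by edgeR: CPT1A by log2 0.27 ± 0.09 (edgeR adjusted p = 0.0564) and HADHB by 0.39 ± 0.13 (edgeR adjusted p = 0.0631). DESeq2 called 2 genes of that list at 0 h, against 1838 of all 15318 genes. Within siControl, CPT1A stood at 131 ± 8.13 CPM at 2 h, above its 8 h level (log2 -0.40 ± 0.09, edgeR adjusted p = 0.0266, where 0.379% of all genes were called lower). That call was lost in each of the 6 fits that left out 1 library (edgeR adjusted p = 0.0568 to 0.148); in sip53 it stood at 151 ± 5.79 CPM at 2 h. The other 10 measured genes of that list of 12 were not called at 8 h, and ACADM among them lay below 0 (log2 -0.40 ± 0.15, edgeR adjusted p = 0.104). The 3 lower ones were Ras regulators: the exchange factor SOS2 (-0.86 ± 0.19, edgeR adjusted p = 0.00678) and the GTPase-activating proteins NF1 (-0.59 ± 0.14, edgeR adjusted p = 0.0116) and RASA1 (-0.62 ± 0.15, edgeR adjusted p = 0.0138). Without sip53 8 h replicate 3 all 3 were lost (edgeR adjusted p = 0.0577, 0.0962 and 0.113). Without siControl 8 h replicate 1 NF1 and RASA1 were lost (edgeR adjusted p = 0.0757 and 0.107), and without sip53 8 h replicate 1 RASA1 was (edgeR adjusted p = 0.0589).

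The relatives that differed between the arms at 0 h and 2 h are also named after their values had been seen. At 0 h the sialyltransferase gene ST6GALNAC5 was higher in sip53 (log2 0.62 ± 0.18, edgeR adjusted p = 0.0377) and NF1 lower (-0.54 ± 0.14, edgeR adjusted p = 0.0218). At 2 h HADHB (0.45 ± 0.13, edgeR adjusted p = 0.0243) and PLOD1, a collagen lysyl hydroxylase (0.62 ± 0.17, edgeR adjusted p = 0.0157), were higher. At 2 h NF1 (-0.47 ± 0.14, edgeR adjusted p = 0.0357) and ACADM, an acyl-CoA dehydrogenase (-0.51 ± 0.15, edgeR adjusted p = 0.0313), were lower. These were 1 higher and 1 lower of the 68 at 0 h and 2 of each at 2 h, where 3.98% and 4.42% of all genes were called higher and 5.14% and 7.79% lower. None of these calls held in all 6 fits that left out 1 library. Both 0 h calls were lost without siControl 0 h replicate 2 or 3 or sip53 0 h replicate 2 or 3 (edgeR adjusted p = 0.0658 to 0.141). At 2 h all 4 calls were lost without siControl 2 h replicate 2 (edgeR adjusted p = 0.112 for HADHB, 0.0564 for PLOD1, 0.206 for NF1 and 0.119 for ACADM). HADHB was also lost without sip53 2 h replicates 2 or 3, PLOD1 without siControl 2 h replicate 1 or sip53 2 h replicate 3, NF1 without siControl 2 h replicate 3 or sip53 2 h replicates 1 or 2, and ACADM without siControl 2 h replicate 1 or sip53 2 h replicates 1 or 3 (edgeR adjusted p = 0.0568 to 0.189 over these fits).

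For each of the 7 genes the genes with the most similar pattern were sought among 9638 others, by the root mean square difference between the 6 group means in log2 CPM, each gene centred on its own mean. The others include the rest of the 7, which were all picked for E2 rises over these same groups. Nearness among the 7 therefore follows in part from the choice. RASGRP1 and SLC22A3 were each other's nearest (0.15), and SLC22A3 was among the 2 nearest to LOXL4 (0.17). The nearest to ST6GALNAC2 was CADM1, a cell adhesion molecule (0.16), then NPIPA7 (0.19), a member of a multi-copy family whose reads may come from more than 1 gene. RNF223 was nearest to F3, the gene of tissue factor (0.17), which was also highest at 2 h, at 99.3 ± 11.2 CPM in siControl and 78.7 ± 3.88 in sip53 (mean ± SD, n = 3 each). LONRF2 was nearest to RNF223 (0.29) and the transcription factor gene KLF4 (0.30), and SLC22A5 to MYC (0.26) and RASGRP1 (0.26). Over the 18 single samples MYC was the nearest to SLC22A5 (0.32) and F3 to RNF223 (0.29), while SLC22A3 was among the 2 nearest to RASGRP1 (0.27), ST6GALNAC2 among those to SLC22A3 (0.26) and CADM1 among those to LOXL4 (0.28). The nearest to ST6GALNAC2 was SLC22A3 (0.26) and to LONRF2 RASGRP1 (0.38).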

How the data were processed

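RNA from 18 PEO1 samples was made into libraries with a QuantSeq 3′ kit, per the labels' protocols. The deposited values are RSEM expected counts, all whole (0 values moved on rounding); the authors used RSEM 1.3.3, Bowtie2, cutadapt, MultiQC and hg19, per the submitters' processing notes. The gene models used for counting are not named there. The table names each row by Ensembl transcripts, which were matched to genes through GENCODE v29 (GRCh38): 52673 of 57736 rows matched a single gene, 267 most of their transcripts to 1 gene, and 154 and 4642 got no name (0.635% of counts). Gene coordinates are those of GENCODE v29, not of the authors' build.

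Counts were fitted with edgeR 4.0.16 (R 4.3.3, limma 3.58.1): filterByExpr with a minimum count of 10 (15318 genes), TMM scaling, 1 mean per group over all 18 samples, the quasi-likelihood test, and Benjamini-Hochberg adjustment over all genes at 0.05. The biological coefficient of variation was 15.2%. On data simulated for the knockdown at 8 h (15010 genes), 63% of genes changed 2-fold and 78% changed 3-fold were recovered. There 100 genes were changed by each fold, whereas 1372 were called in the data at 8 h, so these rates need not hold for the data.

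The 7 genes and the lists of relatives were chosen with earlier results of these data known. Named relatives are up to 3 called genes per list and direction at 8 h; the 2 nearest patterns are named per gene, among genes with an average log2 CPM of at least 3 (prior count 2). Alternatives were RLE and upper-quartile scaling, DESeq2 1.42.0, no filter, the compared groups alone, a replicate block and leaving out each sample. P-values weigh a difference between group means against the spread between the samples of a group, which may be technical. Samples of a group differed beyond counting error, with a chi-square of 4.04 to 22.9 per degree of freedom (genes of 20 or more counts). The level of the gene targeted by the siRNA and some of the nearest patterns are not reported here.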

Additional observations from a re-analysis of the deposited data

Results flagged for a closer look

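SLC22A5 took opposite courses in the arms between 2 h and 8 h of E2. In siControl all 3 samples at 8 h were below all 3 at 2 h (19.9 to 22.5 against 24.5 to 25.4 CPM; log2 -0.22 ± 0.16), and in sip53 all 3 were above (36.5 to 47.4 against 32.5 to 35.9 CPM; log2 0.25 ± 0.15). The intervals, not adjusted for multiple testing, were -0.55 to 0.12 in siControl and -0.07 to 0.57 in sip53. All 8 h samples lay below all 2 h samples for 8.71% of all genes in siControl. In sip53 they lay above for 9.89%. The 2 log2 values differed by 0.47, and this difference was not tested, since the gene was picked for its response to E2.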

How the results depend on the processing

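For the 7 genes, all 336 alternative values of the rise over 0 h and all 168 of the 8 h against 2 h difference kept their direction and moved by less than the spread between samples. Of 252 alternative values of the knockdown differences, 225 kept their direction and their side of the threshold, 19 came to pass it, 7 ceased to, and 1 changed sign without a call. Of the differences between arms in the E2 response, 236 values kept their direction and stayed within the spread between samples and 16 did not. The number of the 7 called higher with knockdown at 0 h (0) was 1 with DESeq2 and 0 to 1 when 1 sample was left out; that called lower (1) was 0 for the groups alone and with no filter, and 0 to 1. At 2 h the number called higher (0) was 2 for the groups alone, with DESeq2, with no filter and with the replicate block, 1 with RLE and with upper-quartile scaling, and 0 to 2 when 1 sample was left out. At 8 h the number called higher (2) was 4 with DESeq2. SLC22A3 was also called for the groups alone (edgeR adjusted p = 0.0121) and with no filter (edgeR adjusted p = 0.00147). RASGRP1 was also called with upper-quartile scaling (edgeR adjusted p = 0.04998). The cause was not tested.

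Over all genes, calls for E2 at 2 h in siControl (35) were 13 for the groups alone, 118 with DESeq2, 285 with no filter and 17 to 144 with 1 sample left out, and at 8 h (399) 131, 670, 789 and 180 to 739. In sip53 at 2 h (47) they reached 204 and at 8 h (419) 701 with no filter, and fell to 30 and 213 with 1 sample left out. Knockdown calls at 0 h (1397) were 284 for the groups alone, and with 1 sample left out 289 to 2043; at 2 h (1871) 821 to 1923 and at 8 h (1372) 399 to 1466. The difference between arms, with 0 calls, had 36 at 2 h and 54 at 8 h with no filter.

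Replicate numbers did not pair the samples: over 45 same-numbered pairs the correlation of deviations was -0.145 to 0.209, with 3 over 0.1, and 7 of 18 samples correlated best with their own number. With 3 samples a group and 1 cell line, changes near 2-fold can be missed, and genes of few counts such as ST6GALNAC2 have the widest errors.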
